A study of Homo sapiens with 6 samples.

Results

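The peaks described here lie at the loci of 9 mucin genes, MUC6, MUC2, MUC5AC, MUC5B, MUC1, MUC20, MUC4, MUC13 and MUC16. They were chosen by position: a peak is a member when its summit lies in 1 of 5 windows of hg19 placed around these genes, 1.92 Mb in all. Of 35687 peaks in the 3 deposited lists, 96 are members. They comprise 33 of 9769 BRD8 peaks in Calu3, 20 of 9505 BRD8 peaks in 16HBE14o- and 43 of 16413 CTCF peaks in Calu3. Calu3 is a line from a human lung adenocarcinoma, and 16HBE14o- is a transformed human bronchial epithelial line. BRD8 was precipitated from untreated Calu3 and 16HBE14o- cells with the same antibody, and CTCF from untreated Calu3 cells, all grown in DMEM with serum, in 2 replicates per experiment. Each list is 1 pooled value per experiment, made by the authors with the irreproducible discovery rate, which retains peaks whose ranks are reproducible between replicates. No test over replicates could therefore be made, the sequencing depth behind the lists is unknown, and the intervals below are 95% exact Clopper-Pearson intervals that cover counting error only. Below, a peak without BRD8 or CTCF is one that met no listed peak, which does not show that the protein was absent. CTCF was not mapped in 16HBE14o-, so a 16HBE14o- peak at or with CTCF is one that met a Calu3 CTCF peak. Whether CTCF was bound there in 16HBE14o- is not known.

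Mucins are large, heavily glycosylated proteins of epithelial surfaces. MUC5AC and MUC5B are the main secreted, gel-forming mucins of airway mucus, while MUC2 is best known from the intestine and MUC6 from the stomach. MUC1, MUC4, MUC13, MUC16 and MUC20 are anchored in the cell membrane, and MUC1, MUC4 and MUC16 line the airway surface. BRD8 carries a bromodomain and belongs to NuA4/TIP60, a complex that acetylates histones. CTCF binds DNA through its zinc fingers and is found at insulators and at the anchors of chromatin loops. The lists use hg19 and the gene table at hand uses GRCh38.p14, so peaks were placed in windows but not in exons, introns or promoters, and gene neighbours are given by name only. Below, near a gene means in its window, at a distance from the gene that was not measured.

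Peak density differed between the 5 windows, and the MUC1 window led the counts. The 5 windows make up 0.0632% of the genome and held 0.338% of the Calu3 BRD8 list (0.233 to 0.474%), 0.210% of the 16HBE14o- BRD8 list (0.129 to 0.325%) and 0.262% of the CTCF list (0.190 to 0.353%). In peaks per Mb this was 17.2 for Calu3 BRD8, against 3.22 over the genome. For 16HBE14o- BRD8 it was 10.4 in the windows, against 3.13 over the genome, and for CTCF 22.4, against 5.41. The genome values divide by the full length of the chromosomes. Gene density was not compared between the windows and the genome, so these values do not show a feature particular to mucin genes. The MUC1 window held 13 Calu3 BRD8, 14 16HBE14o- BRD8 and 17 CTCF peaks. Without it, 20 Calu3 BRD8, 6 16HBE14o- BRD8 and 26 CTCF peaks were left in 1.62 Mb, or 12.3, 3.7 and 16.0 per Mb. Most of the 16HBE14o- BRD8 density over the 5 windows thus came from the MUC1 window, since 3.7 per Mb stands beside 3.13 over the genome. In the Calu3 BRD8 list some neighbouring peaks overlap, and its 33 members formed 27 separate regions, while the 16HBE14o- and CTCF members did not overlap within their lists.

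**Figure D1:**
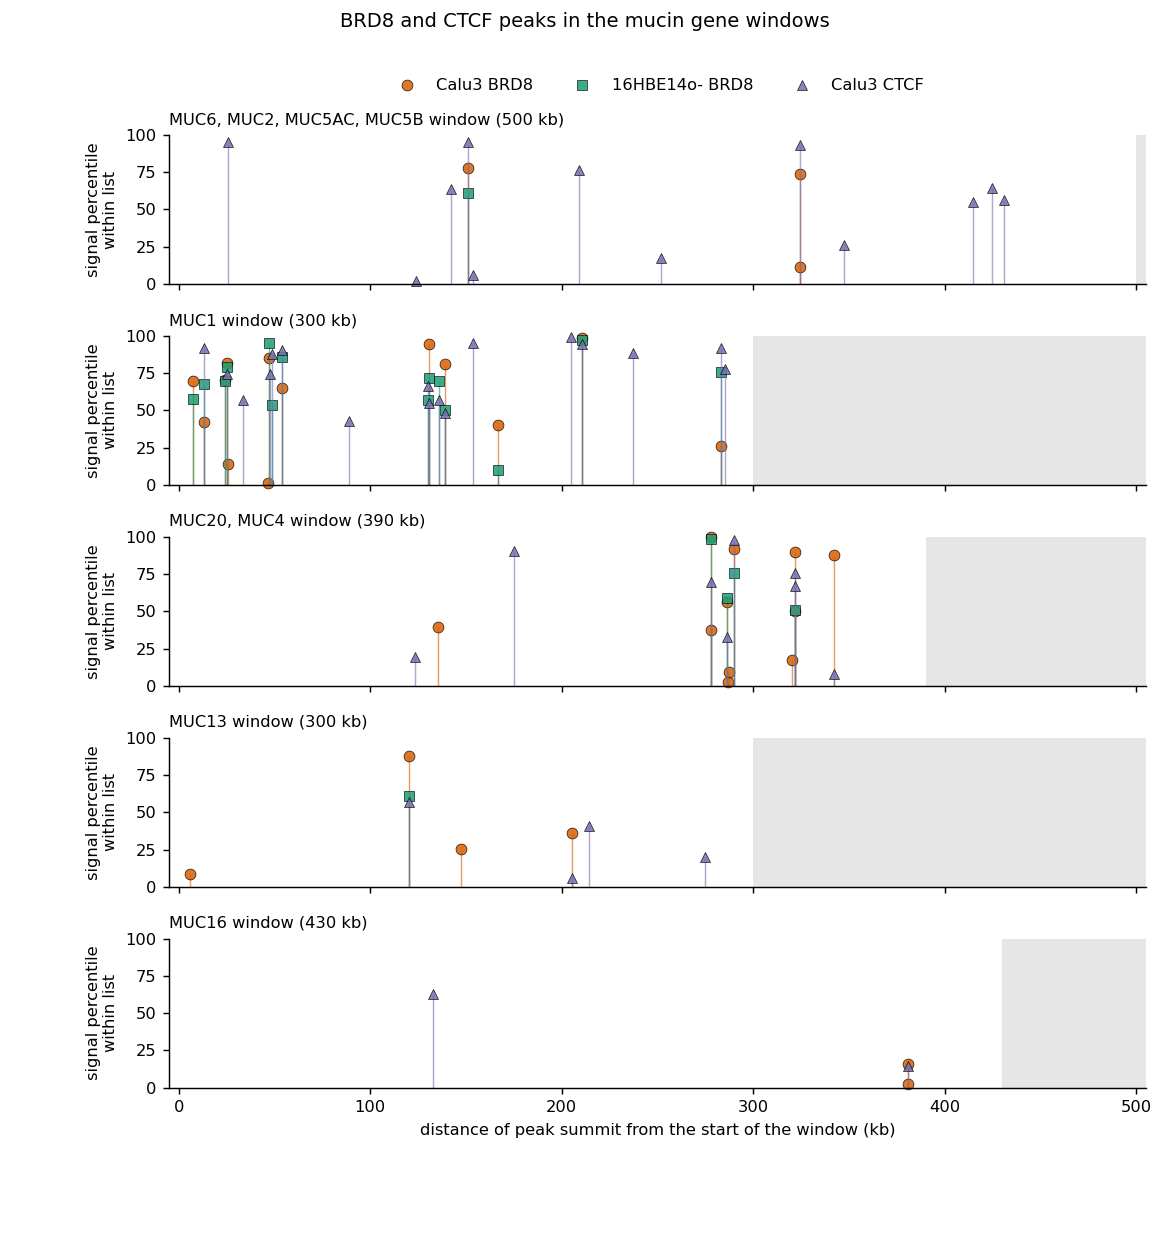
Position and signal percentile of all 96 member peaks. The x axis is the distance of a summit from the start of its window in kb, the y axis the percentile of the authors' signal within the peak's own list (100 is the strongest), circles are Calu3 BRD8, squares 16HBE14o- BRD8 and triangles Calu3 CTCF, and grey areas lie outside the window. The MUC1 window is the most crowded, and the MUC16 window holds 4 peaks.

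The gel-forming mucin genes share a window in 11p15.5 (chromosome 11, 900000 to 1400000), in the order MUC6, MUC2, MUC5AC, MUC5B, between AP2A2 and TOLLIP in the gene table. CTCF peaks were numerous there and BRD8 peaks few: 3 in Calu3, 1 in 16HBE14o- and 12 for CTCF. The arm 11p held 251, 31 and 435. Per Mb, the window had 6.0 Calu3 BRD8 peaks against 4.67 on the arm, 2.0 16HBE14o- BRD8 peaks against 0.577, and 24.0 CTCF peaks against 8.1. The 3 Calu3 BRD8 peaks formed 2 separate regions, and no interval was computed for these densities.

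The site of the window with BRD8 in both lines lay at 1050979 to 1051454. Its BRD8 signal on the authors' scale was 46.6 in Calu3 (percentile 77.8 of that list) and 31.8 in 16HBE14o- (percentile 60.8), and its CTCF signal of 204 was the highest in the window. The BRD8 summits of the 2 lines were 79 bp apart, the largest such distance among the sites of both lines described here. A second site, at 1224201 to 1224875, had BRD8 in Calu3 and no peak in 16HBE14o-. It held 2 overlapping Calu3 peaks, with signals of 43.3 and 15.3, over a CTCF peak of signal 185. The CTCF peaks of both sites were strong ones, at percentiles 95.3 and 93.5 of the CTCF list.

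The other strong CTCF peaks of this window carried no BRD8 peak. The peak at 925555 to 925837 had a CTCF signal of 203, and the peak at 1108632 to 1108921 a CTCF signal of 80.1. Of the 12 CTCF peaks, 10 met BRD8 in neither line, or 83.3% (51.6 to 97.9%), against 47.7% over the CTCF list. The share over the CTCF peaks of 11p was not computed, so a difference between this window and its arm was not tested. The arm held 0.577 16HBE14o- BRD8 peaks per Mb, against 3.13 over the genome, and 4.67 Calu3 BRD8 peaks, against 3.22. No BRD8 peak was listed over the 173 kb between the summits of the 2 BRD8 sites, while 3 CTCF peaks lay there, with signals of 17.1, 80.1 and 21.5. The 3 CTCF peaks nearest the right edge of the window, with signals of 37.9, 47.8 and 39.0, met no listed BRD8 peak either.

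MUC1, a membrane mucin expressed on most epithelia, lies in 1q22 between TRIM46 and THBS3. Its window (chromosome 1, 155010000 to 155310000) held 43.3 Calu3 BRD8 peaks per Mb against 3.24 on the arm 1q, 46.7 16HBE14o- BRD8 peaks against 3.36, and 56.7 CTCF peaks against 4.94. Gene density was not compared between the window and the arm, so these values describe the window and not MUC1 itself. When all lists were merged into sites, the window had 21 sites, of which 8 held BRD8 in both lines with CTCF and 3 BRD8 in both lines without CTCF. BRD8 in 16HBE14o- alone was found at 3 sites, each at a Calu3 CTCF peak. BRD8 in Calu3 alone was found at 1, the weak peak at 155056481 to 155056956 (signal 7.73, percentile 1.06).

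The strongest BRD8 site of the MUC1 window was at 155220500 to 155220787. BRD8 had a signal of 135 in Calu3 (rank 149) and of 62.5 in 16HBE14o- (rank 289), and CTCF a signal of 193 (rank 939). The summits of the 2 BRD8 peaks lay 9 bp apart. The next site to the left, 6.0 kb away between CTCF summits, had the highest CTCF signal of all windows, 267 (rank 155, 155214508 to 155214750), and no BRD8 peak in either line. The CTCF peak at 155163370 to 155163578, with a signal of 201, met none either.

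At the other 7 sites of all 3 lists near MUC1, the BRD8 percentile was higher in Calu3 at 3 and in 16HBE14o- at 4. At 155057062 to 155057540 BRD8 had a signal of 54.1 in Calu3 and 56.3 in 16HBE14o-, which is percentile 85.0 of its list in Calu3 and 95.1 in 16HBE14o-. At 155140287 to 155140762 the signals were 77.1 in Calu3 (percentile 94.4) and 35.7 in 16HBE14o- (percentile 71.9). The reverse was seen at 155293087 to 155293562, where Calu3 BRD8 had a signal of 24.9 (percentile 26.2), 16HBE14o- BRD8 a signal of 37.2 (percentile 75.5) and CTCF a signal of 172.

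Calu3 BRD8 also ranked lower than 16HBE14o- BRD8 within its list at 155022876 to 155023351 (percentile 42.4 against 67.5) and at 155063812 to 155064287 (65.2 against 85.7). The CTCF signals of these sites were 171 and 161. At 155149016 to 155149491 the percentile was 81.0 in Calu3 and 50.6 in 16HBE14o-, over a CTCF peak of signal 33.2. The last site of this kind, at 155035112 to 155035793, stood at percentile 81.6 in Calu3 and 79.1 in 16HBE14o-. The scale of the authors' signal may differ from list to list, so percentiles describe order within a list.

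The 3 sites with BRD8 in both lines and no listed CTCF peak were all in the MUC1 window, and were named after their values were seen. They lay at 155017340 to 155017815 (percentile 69.9 in Calu3 and 57.8 in 16HBE14o-), 155033927 to 155034402 (70.6 in Calu3 and 70.0 in 16HBE14o-) and 155176568 to 155177043 (40.2 in Calu3 and 10.2 in 16HBE14o-). Over the genome 563 of 21110 merged sites (2.67%) were of this kind, against 3 of 51 (5.88%) in the windows.

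MUC20 and MUC4 are neighbouring membrane mucin genes in 3q29, between APOD and TNK2, and MUC4 is one of the tethered mucins of the airway surface. Their window (chromosome 3, 195300000 to 195690000) held 11 Calu3 BRD8, 4 16HBE14o- BRD8 and 8 CTCF peaks. Per Mb the window had 28.2 Calu3 BRD8 peaks against 7.66 on the arm 3q, 10.3 16HBE14o- BRD8 peaks against 2.35, and 20.5 CTCF peaks against 8.47. Each of the 4 16HBE14o- peaks lay at a site with Calu3 BRD8 and CTCF, while Calu3 had BRD8 at 4 further sites. Of these, 1 was at CTCF and 3 were not. All 16HBE14o- BRD8 summits fell within 43.7 kb. The gene table lists the pseudogene MUC20P1 on the same chromosome, and how reads from such copies were counted is not given in the sources used here.

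The strongest BRD8 peak of all the mucin windows was here, at 195577775 to 195578090. Its signal in Calu3 was 216, rank 36 of 9769. The 16HBE14o- peak of this site had a signal of 72.3, rank 149 of 9505, and was the strongest 16HBE14o- peak of all windows too. CTCF was of middle strength there, with a signal of 58.1 (percentile 69.7). The summits of BRD8 in Calu3 and of CTCF were 7 bp apart.

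At 195589983 to 195590227 CTCF was strong, with a signal of 234 (percentile 97.7), and BRD8 had a signal of 67.7 in Calu3 and 37.2 in 16HBE14o-. At 195621432 to 195622191 BRD8 stood at percentile 90.1 in Calu3 and 50.9 in 16HBE14o-, the largest excess of Calu3 percentile among the sites of both lines, 39.2 points. This site held 2 Calu3 BRD8 and 2 CTCF peaks, with summits of CTCF 0.395 kb apart. The fourth site of all 3 lists, at 195586148 to 195586824, was weaker, at percentile 56.0 for BRD8 in Calu3, 59.2 in 16HBE14o- and 32.5 for CTCF.

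The Calu3 peak at 195641837 to 195642312 had the highest percentile of the BRD8 peaks without a partner in the other line. Its signal was 58.4 (percentile 87.7), over a weak CTCF peak of signal 18.3 (percentile 7.96). Conversely, the CTCF peak at 195474788 to 195475056, of signal 160.1, had no BRD8 peak in either line. The 3 Calu3 BRD8 peaks of this window with no partner in any list were at percentile 39.2 or lower.

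MUC13, a membrane mucin best known from the gut, lies between ITGB5 and HEG1 in 3q21.2. Its window (chromosome 3, 124500000 to 124800000) held 4 Calu3 BRD8 peaks, 1 16HBE14o- BRD8 peak and 4 CTCF peaks. The densities were 13.3 per Mb for Calu3 BRD8, 3.33 for 16HBE14o- BRD8 and 13.3 for CTCF, against the same 3q values. The site of all 3 lists was at 124620131 to 124620606, with BRD8 signals of 58.7 in Calu3 (percentile 87.8) and 31.9 in 16HBE14o- (percentile 61.0) and a CTCF signal of 39.3. The BRD8 summits of the lines were 9 bp apart. The other Calu3 BRD8 peaks were weaker. The peak at 124705181 to 124705656 had a BRD8 signal of 27.7 and overlapped a CTCF peak of signal 17.2, and the peaks at 124647389 to 124647864 (signal 24.7) and 124505455 to 124505930 (signal 12.8) met no other list. The remaining CTCF peaks, at 124714285 to 124714574 and 124774463 to 124774752, had signals of 29.9 and 22.3 and met no listed BRD8 peak.

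MUC16, the large tethered mucin that carries the CA125 antigen, lies in 19p13.2 between MBD3L1 and OR1M1. Its window (chromosome 19, 8810000 to 9240000) was the emptiest, with 2 Calu3 BRD8 peaks, 0 16HBE14o- BRD8 peaks and 2 CTCF peaks. Per Mb this was 4.65 for Calu3 BRD8 against 5.62 on the arm 19p, 0 against 5.02 for 16HBE14o- BRD8, and 4.65 against 12.8 for CTCF. The Calu3 BRD8 peaks, of signal 19.9 and 8.46, overlapped each other and a CTCF peak of signal 20.7, in a site at 9190412 to 9191097. The other CTCF peak, at 8942773 to 8943062 with a signal of 45.7, lay 248 kb away and met no listed BRD8 peak.

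**Figure D2:**
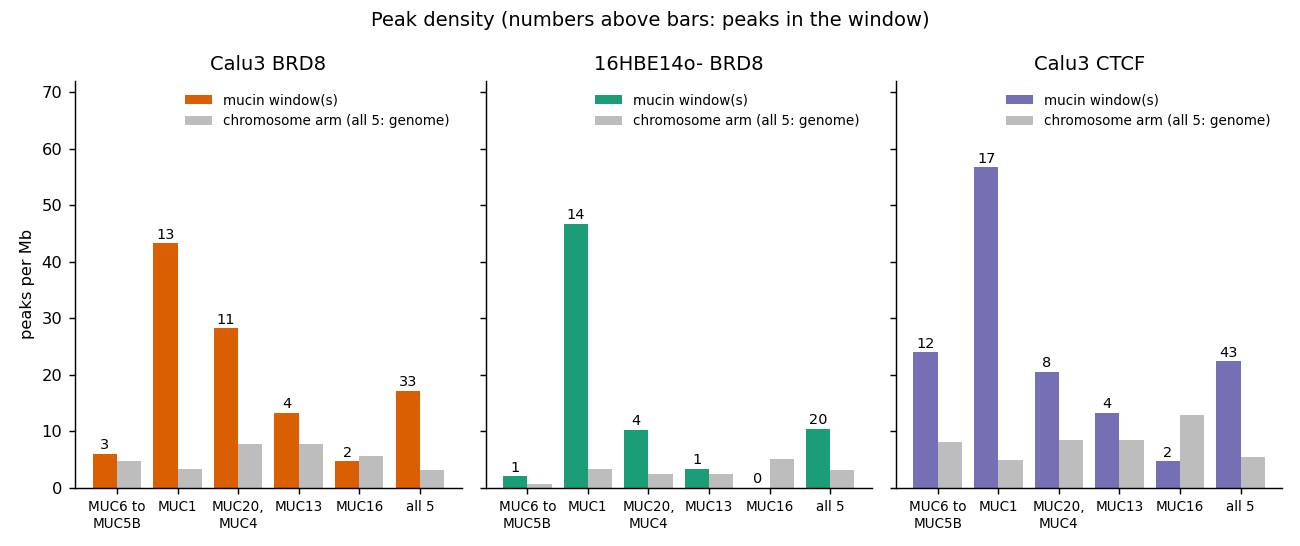
Peaks per Mb in each mucin window (coloured bars) and on the chromosome arm that holds it (grey bars), with all 5 windows against the genome at the right of each panel. Numbers above the bars count member peaks. The bars of 4 of the 5 windows are above those of their arms in all 3 lists, and the MUC16 window is below its arm in all 3. Some bars rest on few peaks, and no interval was computed for them. For 16HBE14o- BRD8 the gel-forming and MUC13 windows held 1 peak each and the MUC16 window 0.

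The windows end at arbitrary positions, and peaks lay close to some edges. On chromosome 11 the nearest CTCF peak outside the left edge was 1.3 kb away with a signal of 20.9, while the first one inside was 25.7 kb from the edge with a signal of 203. At the left edge of the MUC16 window a CTCF peak of signal 14.4 lay 5.15 kb outside and one of signal 45.7 lay 133 kb inside. At the left edge of the MUC13 window a Calu3 BRD8 peak of signal 12.8 lay 5.69 kb inside and one of signal 47.2 lay 19.7 kb outside. At the left edge of the MUC1 window a 16HBE14o- BRD8 peak of signal 31.1 lay 7.57 kb inside and a Calu3 BRD8 peak of signal 22.4 lay 19.6 kb outside. At the left edge of the MUC20 and MUC4 window a CTCF peak of signal 22.3 lay 124 kb inside and one of signal 28.1 lay 50.7 kb outside. Beyond the right edge of the MUC1 window the next peak of any list was 309 kb away. This distance was 357 kb at the MUC13 window and 661 kb at the MUC16 window. It was 63.1 kb at the MUC20 and MUC4 window and 9.36 kb on chromosome 11.

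The 2 lines were then compared over all 5 windows. Most BRD8 peaks of 16HBE14o- at the mucin loci were also called in Calu3. With all listed peaks counted, the reverse held for a smaller part. Of the 33 Calu3 BRD8 peaks, 21 met a 16HBE14o- BRD8 peak by at least 1 bp, or 63.6% (45.1 to 79.6%), against 50.1% over the Calu3 list. Of the 20 16HBE14o- BRD8 peaks, 17 met a Calu3 BRD8 peak, or 85.0% (62.1 to 96.8%), against 43.4% over the 16HBE14o- list. The first interval includes the share over the Calu3 list, and the second lies above the share over the 16HBE14o- list. Both shares rest on the same 17 sites with BRD8 in both lines, so the 2 intervals cannot be compared with each other. With overlapping peaks of a list merged, 17 of 27 Calu3 regions met 16HBE14o- BRD8 (63.0%, 42.4 to 80.6%). The 16HBE14o- members were mostly peaks of high signal, 19 of 20 being in the upper 50% of their list. With both lists limited to their upper 50%, 15 of 17 Calu3 peaks met a 16HBE14o- peak, or 88.2% (63.6 to 98.5%), against 43.0% over such Calu3 peaks. Of the 16HBE14o- peaks 14 of 19 met a Calu3 peak, or 73.7% (48.8 to 90.9%), against 42.7%. In the upper 50% the Calu3 share was thus the larger of the 2, and both shares again rest on common sites. With a reciprocal overlap of at least 50% the shares were 9.09% and 15.0%, since the usual peak is 476 bp wide in Calu3 and 224 bp in 16HBE14o-. Every one of the 20 16HBE14o- peaks met a Calu3 BRD8 or a CTCF peak, whereas 28.6% of the 16HBE14o- list met neither. Of the Calu3 BRD8 peaks 6 met neither other list, or 18.2% (6.98 to 35.5%), against 22.8% over the list. Both other lists were met by 18 of 33 Calu3 BRD8 peaks (54.5%, 36.4 to 71.9%, against 43.3%) and by 14 of 20 16HBE14o- BRD8 peaks (70.0%, 45.7 to 88.1%, against 37.3%).

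The shared peaks were mostly those near MUC1 and near MUC20 and MUC4, the windows with the most Calu3 BRD8 peaks. Near MUC1, 12 of 13 Calu3 BRD8 peaks met a 16HBE14o- peak, near MUC20 and MUC4 7 of 11, in the gel-forming window 1 of 3, near MUC13 1 of 4 and near MUC16 0 of 2. The interval near MUC1 (64.0 to 99.8%) lay above the 50.1% of the Calu3 list. That near MUC20 and MUC4 (30.8 to 89.1%) and those of the other windows included it. Without the MUC1 window, 9 of 20 Calu3 peaks met a 16HBE14o- peak (45.0%, 23.1 to 68.5%), and all 6 remaining 16HBE14o- peaks met Calu3 BRD8. The Calu3 BRD8 peaks that met no 16HBE14o- peak had a median percentile of 16.5 and those that met one 70.6. Over the list these medians were 39.7 and 61.8.

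Calu3 supplied 33 of the 53 BRD8 peaks of both lines in the windows, or 62.3% (47.9 to 75.2%), against 50.7% over both lists. In the upper 50% of each list by signal it supplied 17 of 36, or 47.2% (30.4 to 64.5%). The surplus of Calu3 peaks lay outside the MUC1 window, mostly on 3q, where Calu3 supplied 76.6% of all BRD8 peaks of the arm (73.9 to 79.1%), as it did 89.0% on 11p (84.8 to 92.4%) and 52.8% on 19p (46.8 to 58.8%). The share was 73.3% (44.9 to 92.2%) near MUC20 and MUC4, 80.0% (28.4 to 99.5%) near MUC13 and 75.0% (19.4 to 99.4%) in the gel-forming window. Near MUC1 it was 48.1% (28.7 to 68.1%), against 49.1% on 1q. Each of these 4 intervals includes the share of its arm, and whether the surplus at the mucin loci differs from that of the arms was not tested. Near MUC16 Calu3 supplied both BRD8 peaks.

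**Figure D3:**
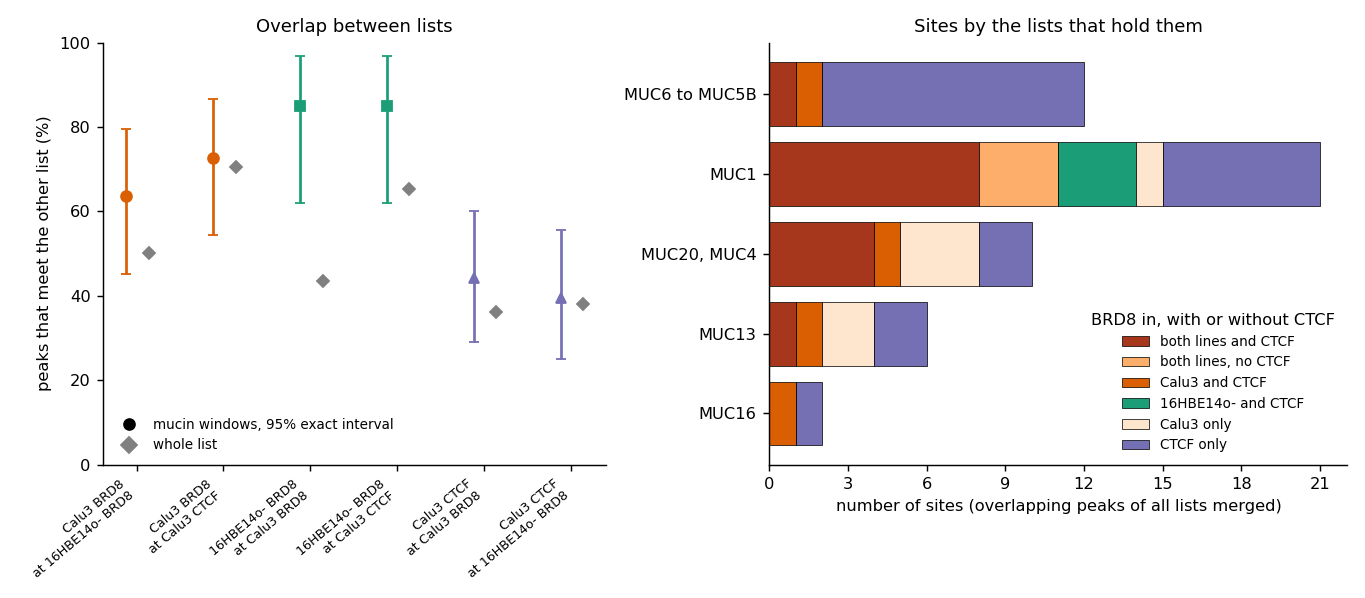
Left, share of peaks in the mucin windows that meet another list by at least 1 bp, with 95% exact intervals, beside the share over the whole list (grey diamonds). Right, merged sites of each window by the lists that hold them. The 16HBE14o- BRD8 peaks stand highest, at 85.0%, for overlap with Calu3 BRD8 and with Calu3 CTCF. CTCF without BRD8 makes up 10 of 12 sites in the gel-forming window.

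Most BRD8 peaks at the mucin loci lay at CTCF peaks, with intervals that include the shares over the lists. Of the Calu3 BRD8 peaks 24 of 33 met a Calu3 CTCF peak, or 72.7% (54.5 to 86.7%), against 70.5% over the list. With overlapping peaks of a list merged, 18 of 27 Calu3 BRD8 regions did, or 66.7% (46.0 to 83.5%). The share over the merged list was not computed. Of the 16HBE14o- BRD8 peaks 17 of 20 met a Calu3 CTCF peak, that is CTCF of the other line, or 85.0% (62.1 to 96.8%), against 65.3%. Calu3 BRD8 peaks with CTCF had a median percentile of 69.4 and those without one of 25.7 (58.7 and 33.3 over the list). For 16HBE14o- these medians were 69.5 with CTCF and 57.8 without (60.5 and 31.5 over the list), where 3 peaks met none.

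From the side of CTCF, 19 of 43 member peaks met Calu3 BRD8, or 44.2% (29.1 to 60.1%), against 36.1% over the CTCF list. BRD8 of 16HBE14o- was met by 17 of 43, or 39.5% (25.0 to 55.6%), against 38.0%. Both lines were met by 14 CTCF peaks (32.6%, 19.1 to 48.5%, against 21.8%) and neither by 21 (48.8%, 33.3 to 64.5%, against 47.7%). By window, the share with Calu3 BRD8 was 16.7% (2.09 to 48.4%) in the gel-forming window, 47.1% (23.0 to 72.2%) near MUC1 and 75.0% (34.9 to 96.8%) near MUC20 and MUC4. These intervals overlap one another.

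The median CTCF signal of peaks that met BRD8 in both lines was 72.9 in the windows, against 80.1 over the list. The 5 that met BRD8 in Calu3 alone had a median of 20.7, against 35.3, and the 3 that met it in 16HBE14o- alone 51.6, against 42.5. Those that met BRD8 in neither line had a median of 39.1, against 27.1 over the list, and reached 267. Of the 11 member peaks above percentile 90 of the CTCF list, 4 met BRD8 in neither line, or 36.4% (10.9 to 69.2%), whereas 93 of 1642 such peaks over the list did (5.66%). The 4 are the peaks of signal 203 on chromosome 11, 201 and 267 near MUC1 and 160.1 near MUC20 and MUC4. Another 6 met BRD8 in both lines (54.5%, 23.4 to 83.3%, against 63.3%) and 1 in Calu3 alone (9.09%, 0.230 to 41.3%, against 9.87%). None met BRD8 in 16HBE14o- alone (0 of 11, 0 to 28.5%), whereas 347 of 1642 over the list did (21.1%). This comparison was chosen after the values were seen.

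**Figure D4:**
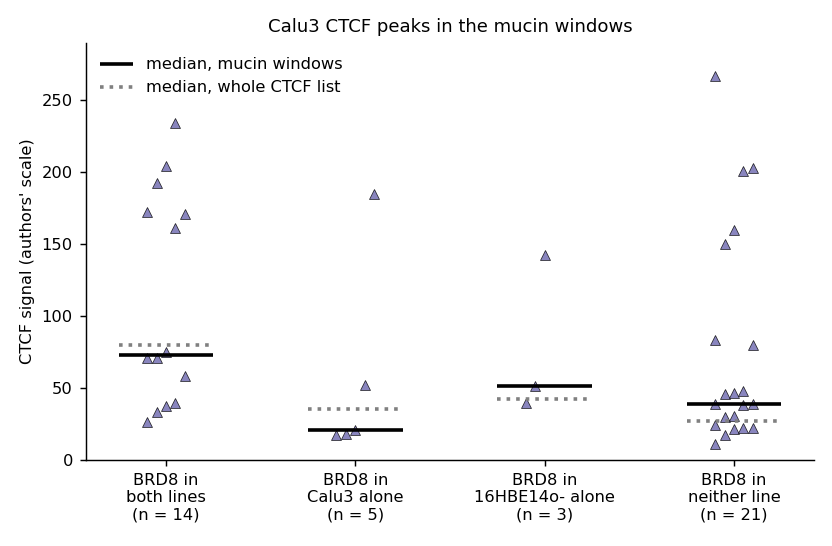
Signal on the authors' scale of the 43 CTCF peaks of the mucin windows, by the lines in which BRD8 was called at the peak. Each triangle is a peak, black lines are medians over the windows and dotted lines medians over the whole CTCF list. The peak of highest signal, 267, is in the group with BRD8 in neither line.

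Merged over the lists, the windows held 51 sites. BRD8 was found in both lines with CTCF at 14 (27.5%, against 16.8% of 21110 sites over the genome), in Calu3 alone with CTCF at 4 (7.84%, against 10.6%) and in 16HBE14o- alone with CTCF at 3 (5.88%, against 12.5%). BRD8 without CTCF was found in Calu3 alone at 6 sites (11.8%, against 8.71%) and in 16HBE14o- alone at 0 (against 12.9%). CTCF alone accounted for 21 (41.2%, against 35.8%).

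Summit distances were taken only at sites where lists met, and the overlap of the peaks itself limits them. At the 17 sites with BRD8 in both lines the summits lay a median of 18 bp apart, from 1 to 79 bp, against a median of 29 bp over 4105 such sites of the genome. Summits of Calu3 BRD8 and CTCF lay a median of 26.5 bp apart at 18 sites, against 31 bp over the genome. For 16HBE14o- BRD8 and CTCF the median was 15 bp at 17 sites, against 19 bp. At the 17 sites with BRD8 in both lines, the order of a peak within its own list can be set side by side, but there is no replicate spread to compare a difference with. The Calu3 percentile was higher at 12 and the 16HBE14o- percentile at 5, with differences, Calu3 minus 16HBE14o-, from -49.3 to 39.2 points and a median of 2.5. Over the genome the Calu3 percentile was higher at 56.2% of such sites, with a median difference of 3.52 points. The 5 sites at which 16HBE14o- ranked higher were 4 near MUC1 and 1 near MUC20 and MUC4.

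**Figure D5:**
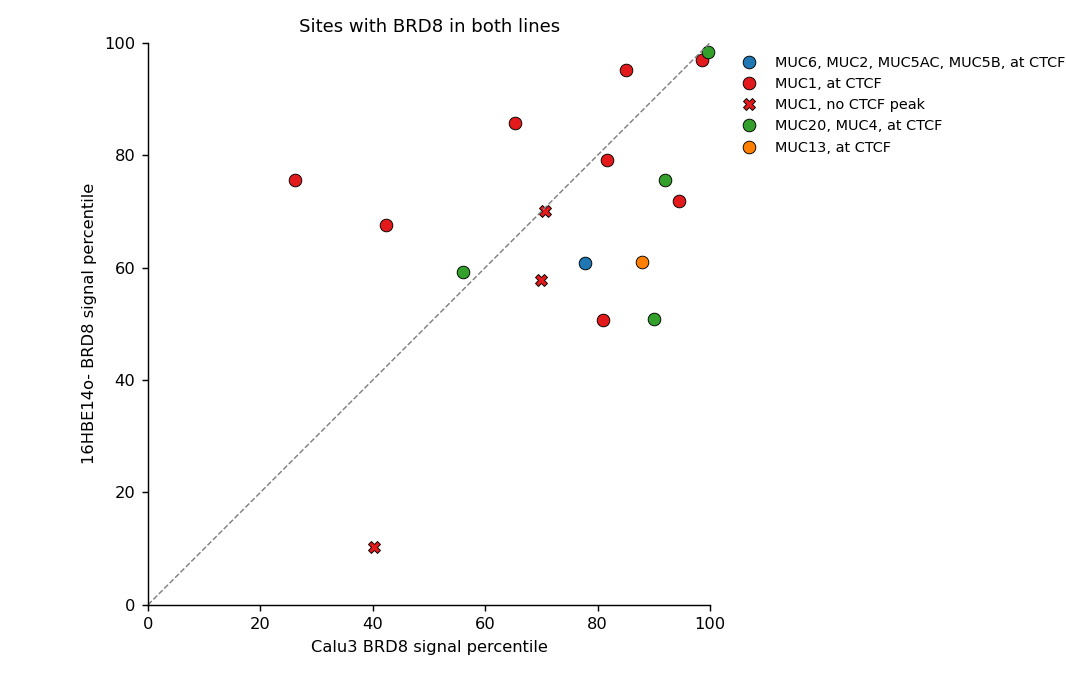
BRD8 signal percentile within the Calu3 list (x axis) and within the 16HBE14o- list (y axis) at the 17 sites with BRD8 in both lines, coloured by window. Circles have a CTCF peak, crosses have none, and the dashed line marks equal percentiles. The points below the line are the 12 sites that ranked higher in Calu3.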

How the data were processed

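BRD8 and CTCF were mapped by chromatin immunoprecipitation and sequencing in 6 samples. The authors reduced the 2 replicates of an experiment to 1 peak list by the irreproducible discovery rate, per the series' design text. The deposited lists are narrowPeak files on hg19, per the file headers. The deposited columns hold a score per peak, the authors' signal, which sets the order of peaks in the file, a second score in the column for q-values, and, as another kind of number, the summit's offset within the peak. The deposited p-value column holds no values. The aligner, peak caller, control library and settings are not given in the sources used here.

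Members were peaks with the summit in the windows. An overlap of at least 1 bp counted as meeting, and shares were given with 95% Clopper-Pearson intervals. A percentile is the share of a list with a signal no higher than the peak's. Sites are overlapping peaks of all lists merged. The named peaks are all peaks of lists with up to 4 in a window, otherwise the 4 of highest signal, and the sites of all 3 lists. Members and lists were chosen with earlier results of these data known. Gene names come from RefSeq (GRCh38.p14), which lists all 9 genes. Distances to gene starts and counts at further mucin and goblet cell genes were planned but need an hg19 annotation, and were not analysed here. Python 3.11.15, numpy 2.4.6, pandas 2.3.3, scipy 1.17.1, matplotlib 3.10.9 and circlize 0.4.16 (chromosome arms) were used. The overlap code was tested on simulated data.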

Additional observations from a re-analysis of the deposited data

How the results depend on the processing

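Of 98 values recomputed for 10 results under 11 alternatives, 82 stayed within the interval of a share or within 1.5 times a count. Leaving out windows other than the chromosome 11 window was chosen after seeing the data. In the upper 50% of each list the Calu3 BRD8 peaks numbered 17, 88.2% of them met 16HBE14o- BRD8, and Calu3 supplied 47.2% of the BRD8 peaks. With a reciprocal overlap of at least 50%, 9.09% of Calu3 BRD8 peaks met 16HBE14o- BRD8, 15.0% of 16HBE14o- peaks met Calu3 BRD8, 36.4% of Calu3 BRD8 peaks met CTCF and 27.9% of CTCF peaks met Calu3 BRD8, a rule limited by peak width. With summits within 100 bp, 51.5% of Calu3 BRD8 peaks met CTCF. Without the MUC1 window there were 20 Calu3 BRD8, 6 16HBE14o- BRD8 and 26 CTCF peaks. Of these, 45.0% of the Calu3 BRD8 peaks met 16HBE14o- BRD8, 100% of the 16HBE14o- peaks met Calu3 BRD8 and 100% met CTCF, 23.1% of the CTCF peaks met 16HBE14o- BRD8, and Calu3 supplied 76.9% of the BRD8 peaks. No paired analysis was possible because the lists pool the replicates and carry no replicate numbers.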
